A study of Mus musculus with 20 samples.

Results

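The 10 arrays of mouse hippocampal cultures treated with NVP-AAM077 (NVP) or with the compound called Ro25 were pooled and set against 5 vehicle control arrays, 15 of the 20 arrays in the study. Dissociated hippocampal neurons had been in culture for 21 days and were exposed for 24 h to 100 nM NVP, to 1 µM Ro25, to 100 µM AP5 or to vehicle alone. Every group held 5 arrays, and the arrays were assigned by their titles. NVP prefers NMDA receptors that hold the Grin2a product, and AP5 competes with glutamate at NMDA receptors. The code that the labels give for Ro25 is not a familiar one, so the subunit it prefers is not stated. No genotype or strain was given. On each array the RNA of a culture was labelled with Cy5 and a universal mouse reference RNA with Cy3, and a value is log2(Cy5/Cy3), written as the log2 ratio. A log2 ratio compares a culture with that reference, so it can be compared between arrays for 1 gene but not between genes.

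NMDA receptors are glutamate-gated channels that pass calcium when the membrane is depolarised. In hippocampal neurons this calcium reaches the nucleus through calmodulin kinases, ERK and CREB. It switches on immediate early genes such as Arc, Npas4 and Nr4a1, and other activity-regulated genes such as Bdnf and Ptgs2. Transcripts of this kind are a common readout of how far receptor block has silenced synaptic signalling, and the question here was which genes both subunit-preferring compounds moved together.

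No single gene passed the test across all genes, yet the genes at the head of the ranking were activity-regulated ones and lay below control with both compounds. Npas4, Ptgs2, Nr4a1 and Arc averaged 0.33 to 0.55 lower on the log2 scale with NVP and Ro25 than in control. Ptgs2, Nr4a1 and Arc were a further 0.82 to 2.32 lower with AP5 than the mean of NVP and Ro25. Between NVP and Ro25 no gene passed the test.

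Of 19338 genes tested, 0 (0%) passed an adjusted p of 0.05 in limma for the mean of NVP and Ro25 against control. At an unadjusted p under 0.05 there were 996 genes, or 5.15%, where 967 would be expected if no gene differed. Of these, 685 were lower with the antagonists (3.54%) and 311 were higher (1.61%). The lowest adjusted p was 0.159 and was shared by 5 genes, among them Npas4, Ptgs2, Cnn2 and Nr4a1, all lower with the antagonists. Hence 0 genes (0%) met the rule for a gene moved by both compounds, which asked for the pooled call and an unadjusted p under 0.05 with each compound in the same direction. The count was 0 or 2 when any 1 array was left out. It was 2 without Ro25 replicate 3, where Hcls1 and Gnat1 passed (adjusted p = 0.0247 and 0.0291), and Gnat1 is named because it passed there.

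In the fit used here, which leaves out the slide of each array, the intervals bound the size of a shared difference. With slide added to the fit as a block, the SE rose from 0.10 to 0.23 for Npas4 and from 0.09 to 0.23 for Ptgs2. The bounds therefore do not cover a difference between slides. For 18670 genes (96.5%) the whole 95% interval of the pooled difference lay within 1.5-fold either way, and the median SE was 0.083 on the log2 scale. The median difference over all genes was −0.005, with quartiles of −0.05 and 0.05. A measured difference of at least 1.5-fold was seen in 9 genes. Whether the 5 arrays of each group stand for different dishes or different animals is not given, so p-values measure the spread between these arrays, which may be technical. With 5 arrays a group, precision is limited by that number.

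**Figure D1:**
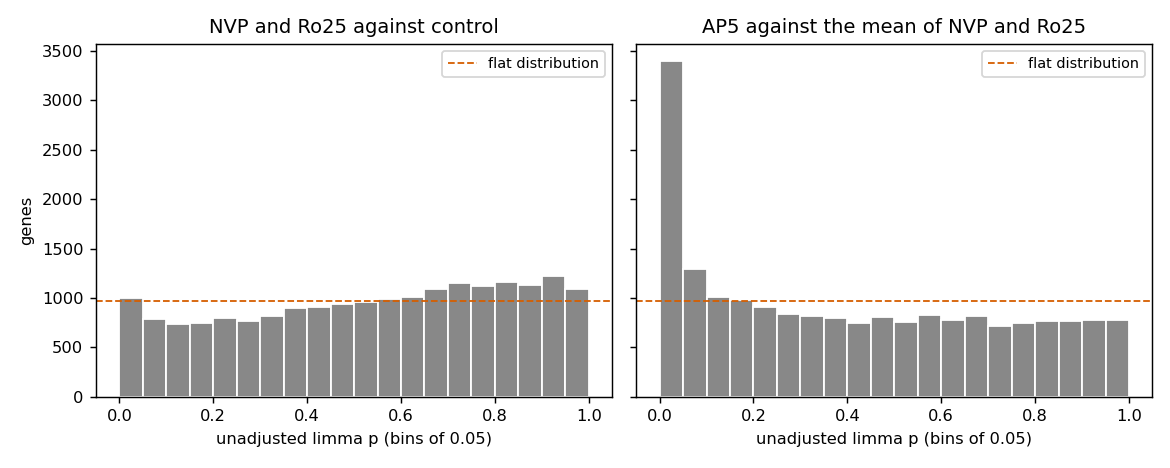
Histogram of unadjusted limma p-values over 19338 genes in bins of 0.05, for the mean of NVP and Ro25 against control (left) and AP5 against the mean of NVP and Ro25 (right), with the height of a flat distribution as a dashed line. The first bin holds 996 genes on the left and 3402 on the right, against 967 for a flat distribution.

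All 10 NVP and Ro25 arrays lay below all 5 control arrays in 31 genes (0.16% of those tested) and above all 5 in 5 genes (0.0259%). Npas4, Nr4a1, Arc, Hcls1, Fam167b and Fosb were among the 31. Among the 5 genes above were Gjd2, Snurf, Pnmal1 and Elmod1, with pooled differences of 0.61, 0.31, 0.35 and 0.35. Snurf, Pnmal1 and Elmod1 are named because the count is small, after their values were seen. None of the 36 passed the adjusted threshold. For a gene that does not differ between the groups, full separation has a probability of 0.000666, shared equally by both directions. The 0.0259% above is no more than its part of that.

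Arrays were spread unevenly over slides and scan days, which the file headers record. NVP arrays lay on slides 2 and 3. Ro25 arrays lay on slides 3, 4 and 6, while 4 control arrays shared slide 5 and control 3 lay on slide 4. No slide therefore joins NVP to control, and a fit with slide as a block rests on control 3 alone, set beside 3 Ro25 arrays on slide 4. The first scan day held 17 arrays, among them all 5 NVP, 4 Ro25 and all 5 control arrays. Values from these fits stand beside some of the genes below, not all of them. Probes well above background in the red (sample) channel made up 60.2 to 69.2% on NVP arrays, 58.6 to 69.3% on Ro25 arrays and 62.2 to 68.4% on control arrays.

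Among the immediate early transcription factors, Npas4 had the lowest p of all genes. Npas4 is a neuronal transcription factor that responds to calcium entry and controls inhibitory synapses. Its log2 ratios were 1.28, 1.03, 1.11, 1.31 and 0.75 with NVP, 0.96, 1.03, 0.67, 0.91 and 0.54 with Ro25, and 1.40, 1.43, 1.67, 1.66 and 1.38 in control. Every antagonist array was below the lowest control array, and NVP 4 at 1.31 came nearest to it. The pooled difference was −0.55 ± 0.10 (SE, adjusted p = 0.159), or 1.46-fold lower, made up of −0.41 with NVP and −0.68 with Ro25. It was −0.69 with slide as a block, −0.86 for Ro25 against control on slide 4 and −0.57 on the first scan day.

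Nr4a1, an orphan nuclear receptor induced within minutes of activity, had log2 ratios of −0.75, −1.06, −1.002, −0.94 and −0.83 with NVP and of −1.15, −0.94, −0.90, −0.74 and −1.06 with Ro25. Control arrays were at −0.54, −0.50, −0.66, −0.34 and 0.04. The groups did not overlap, although NVP 1 and Ro25 4 lay close to control 3, and control 5 stood highest. The difference was −0.54 ± 0.10 (SE, adjusted p = 0.159), with −0.52 for NVP and −0.56 for Ro25. It was −0.35 with slide as a block, −0.32 on slide 4 and −0.54 on the first scan day.

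Npas4 and Nr4a1 are shown with the 250 bases before their annotated starts because both windows hold TGACG, the core of the site that CREB binds. Sequences are from RefSeq (GRCm38.p6), read 5′ to 3′ along the gene's own strand, at chr19:4989972-4990221 (minus strand) for Npas4 and chr15:101266596-101266845 (plus strand) for Nr4a1. Capitals mark TGACG or its reverse complement, which begin 179 and 169 bases before the start of Npas4 and 233, 213, 69 and 40 bases before that of Nr4a1.
Npas4: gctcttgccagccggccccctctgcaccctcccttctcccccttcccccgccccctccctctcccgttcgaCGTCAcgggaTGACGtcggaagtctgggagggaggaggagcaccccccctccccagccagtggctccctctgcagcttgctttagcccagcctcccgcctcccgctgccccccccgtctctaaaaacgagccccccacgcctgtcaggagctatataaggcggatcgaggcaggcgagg
Nr4a1: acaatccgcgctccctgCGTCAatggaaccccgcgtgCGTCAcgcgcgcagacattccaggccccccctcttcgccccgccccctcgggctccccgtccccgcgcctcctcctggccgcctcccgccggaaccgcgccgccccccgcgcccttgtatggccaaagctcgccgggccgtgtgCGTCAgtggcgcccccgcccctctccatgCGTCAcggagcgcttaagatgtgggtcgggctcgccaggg
On either strand TGACG occurs in 20.8% of 32851 RefSeq windows that run 250 bases before to 50 after a start. The full palindrome TGACGTCA occurs in 1.79% of them and in neither of these windows. Of the 8 genes with the lowest p among those lower with the antagonists, 7 had a window, and TGACG was present in 3 of them, Npas4, Nr4a1 and Ptgs2. A match describes letters and is not evidence of binding.

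Arc, whose product removes AMPA receptors from synapses, had closely spaced control arrays. Its log2 ratios were 2.75, 2.64, 2.80, 2.90 and 2.76 with NVP, 2.41, 2.64, 2.63, 2.72 and 2.47 with Ro25, and 2.92, 3.05, 3.04, 2.97 and 3.02 in control. All 10 antagonist arrays were below all 5 control arrays, with NVP 4 at 2.90 next to control 1 at 2.92. The pooled difference of −0.33 ± 0.10 (SE) had an adjusted p of 0.595 across all genes, with −0.23 for NVP and −0.43 for Ro25. An exact two-sided permutation test over the 15 arrays gave p = 0.000666, the smallest that 3003 splits allow. It was 0.00133 after adjustment over the 2 genes tested in this way. With all 10 arrays below all 5, this p could only be the smallest, so it adds nothing to the separation. The test leaves slide out, and its 2 genes were chosen with earlier results of these data known. The difference was −0.47 with slide as a block, −0.51 on slide 4 and −0.34 on the first scan day.

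Among the other immediate early genes, Fosb, a Fos family member that outlasts a bout of activity, averaged −1.50 ± 0.28 with NVP, −1.58 ± 0.43 with Ro25 and −0.96 ± 0.06 in control (SD, n = 5 each). All 10 antagonist arrays were below control, for a difference of −0.58 ± 0.14 (SE, adjusted p = 0.362). Dusp1, a phosphatase that switches off MAP kinases, differed by −0.32 ± 0.08 (SE, adjusted p = 0.424), but by −0.02 with slide as a block and −0.05 on slide 4. Fos differed by −0.51 ± 0.26 (SE, adjusted p = 1.00), its groups overlapped widely, and the difference was 0.05 with slide as a block. As a list, immediate early genes had 23 tested members, 22 of them with a negative pooled difference. At an unadjusted p under 0.05, 11 were lower and 0 higher, against 3.54% and 1.61% of all genes, and the list median was −0.21 against −0.005 for all genes. The mean over the list was −0.565 to −0.372 on NVP arrays, −0.617 to −0.414 on Ro25 arrays and −0.393 to −0.137 on control arrays, so the control range overlapped that of NVP and not that of Ro25. Homer1 was the 1 member with a positive difference, at 0.04.

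**Figure D2:**
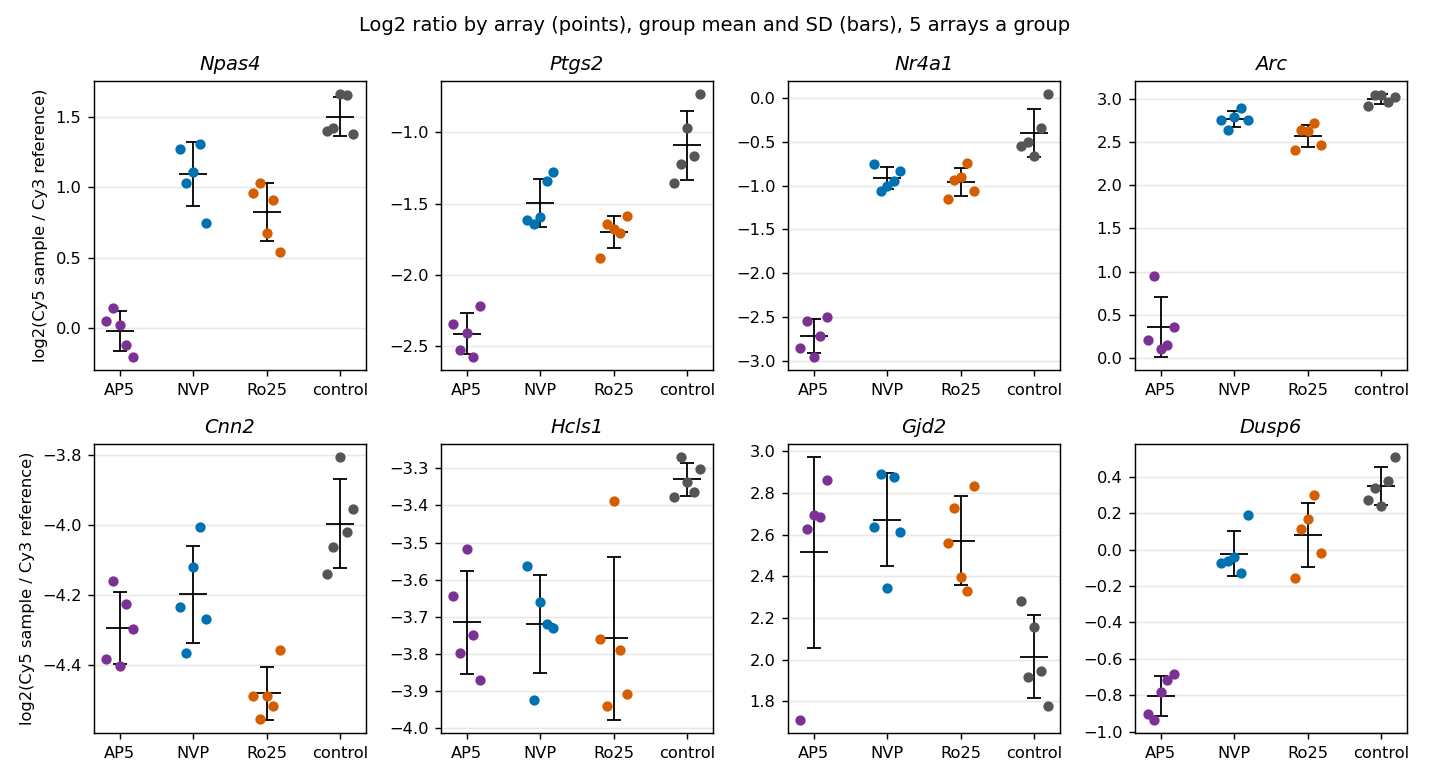
Log2 ratio of sample over reference on each array for 8 genes, 5 points for each of AP5, NVP, Ro25 and control, with the group mean and SD as bars; each panel has its own axis. NVP and Ro25 lie between AP5 and control for Npas4, Ptgs2, Nr4a1, Arc and Dusp6, while Cnn2, Hcls1 and Gjd2 have AP5 at about the level of NVP or Ro25.

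Ptgs2, the inducible cyclooxygenase that begins prostaglandin synthesis, is the gene named in the study's title. Its log2 ratios were −1.61, −1.64, −1.59, −1.34 and −1.28 with NVP, −1.88, −1.64, −1.68, −1.71 and −1.59 with Ro25, and −1.36, −1.22, −0.97, −1.17 and −0.73 in control. All Ro25 arrays and 3 NVP arrays were below the lowest control array, control 1, while NVP 4 and NVP 5 were just above it. The difference was −0.51 ± 0.09 (SE, 95% interval −0.70 to −0.31, adjusted p = 0.159), or 1.42-fold lower. NVP contributed −0.40 and Ro25 −0.61, and both probes of the gene were lower. The exact two-sided permutation test gave p = 0.00200, unchanged by adjustment over both genes tested. As for Arc, the test leaves slide out and the gene was chosen with earlier results known. The difference was −0.68 with slide as a block, −0.75 on slide 4, −0.51 on the first scan day and −0.42 without control 5.

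The remaining prostaglandin genes had differences of −0.19 to 0.16. Of 15 tested members of the pathway, Ptgs2 was the 1 with an unadjusted p under 0.05, against 5.15% of all genes. The median over the list was −0.05. Ptges, which makes prostaglandin E2 from the cyclooxygenase product, differed by −0.19, the constitutive cyclooxygenase Ptgs1 by −0.16, and Pla2g4a, which releases arachidonic acid, by −0.04. Hpgd, the enzyme that degrades prostaglandins, differed by 0.16 but was not well above background on 15 of the 20 arrays.

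The listed late activity-regulated genes were less uniform in direction than the immediate early genes. Bdnf, a neurotrophin released at active synapses, averaged 2.05 ± 0.18 with NVP, 2.00 ± 0.13 with Ro25 and 2.31 ± 0.18 in control (SD, n = 5 each), a difference of −0.29 ± 0.11 (SE, adjusted p = 0.734). Nptx2, a secreted pentraxin that clusters AMPA receptors, differed by −0.24 ± 0.11 (SE, adjusted p = 0.949), and Rgs2, which curbs Gq signalling, by −0.30 ± 0.08 (SE, adjusted p = 0.485). With slide as a block Bdnf was at −0.17 and Nptx2 at −0.32. Camk1g, a calmodulin-dependent kinase, went the other way, at 1.88 ± 0.17 with NVP, 1.96 ± 0.22 with Ro25 and 1.62 ± 0.10 in control (SD, n = 5 each), a difference of 0.30 ± 0.10 (SE, adjusted p = 0.648). Over the 29 tested members, 20 had negative differences, 8 were lower and 1 higher at an unadjusted p under 0.05, against 3.54% and 1.61% of all genes, and the median was −0.07. Among 13 tested genes of ERK feedback, Dusp6, the phosphatase that ERK itself induces, had the lowest p. Its log2 ratio averaged −0.02 ± 0.12 with NVP, 0.08 ± 0.18 with Ro25 and 0.35 ± 0.11 in control (SD, n = 5 each), a difference of −0.32 ± 0.07 (SE, adjusted p = 0.319). It was the 1 member with an unadjusted p under 0.05, against 5.15% of all genes, and the list median was −0.07.

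Cnn2, an actin-binding calponin, had log2 ratios of −4.23, −4.36, −4.12, −4.00 and −4.27 with NVP, −4.49, −4.56, −4.49, −4.52 and −4.36 with Ro25, and −4.14, −4.06, −3.81, −4.02 and −3.95 in control. Ro25 arrays were all below control, while NVP 3 and NVP 4 lay among the control arrays. The pooled difference was −0.34 ± 0.07 (SE, adjusted p = 0.159), with −0.20 for NVP and −0.48 for Ro25. Hcls1, a cortactin relative known from blood cells, had −3.56, −3.92, −3.66, −3.72 and −3.73 with NVP, −3.76, −3.94, −3.39, −3.79 and −3.91 with Ro25, and −3.38, −3.27, −3.34, −3.36 and −3.30 in control. Ro25 3 came close to control 1, and the other antagonist arrays were well below. Its difference was −0.41 ± 0.08 (SE, adjusted p = 0.188), with −0.39 for NVP and −0.43 for Ro25. Fam167b followed at −0.41 ± 0.09 (SE, adjusted p = 0.304). Olfml3, a secreted olfactomedin-like protein, was at −0.44 ± 0.09 (SE, adjusted p = 0.278), and its 2 probes disagreed in sign. With slide as a block Cnn2 was at −0.52, Hcls1 at −0.51, Fam167b at −0.68 and Olfml3 at −0.48.

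Among the 8 genes with the lowest p that were higher with the antagonists, Gjd2 had the largest difference. Gjd2 encodes connexin 36, the main connexin of electrical synapses between neurons. Its log2 ratios were 2.64, 2.89, 2.34, 2.88 and 2.61 with NVP, 2.56, 2.73, 2.40, 2.33 and 2.84 with Ro25, and 2.28, 1.92, 2.16, 1.95 and 1.78 in control. All antagonist arrays were above all control arrays, the closest being Ro25 4 at 2.33 beside control 1 at 2.28. The difference was 0.61 ± 0.15 (SE, adjusted p = 0.362), with 0.66 for NVP and 0.56 for Ro25, and 0.31 with slide as a block. Nectin3, a synaptic adhesion molecule, differed by 0.37 ± 0.09 (SE, adjusted p = 0.343), but by 0.09 with slide as a block and 0.06 on slide 4. Chst9, a sulfotransferase that modifies sugar chains, averaged 0.78 ± 0.14 with NVP, 1.00 ± 0.14 with Ro25 and 0.45 ± 0.09 in control (SD, n = 5 each), a difference of 0.44 ± 0.11 (SE, adjusted p = 0.362). With slide as a block Chst9 was at 0.55. The other genes with the lowest p on this side were Foxl2, a forkhead factor best known from the ovary, Slc7a15, of an amino acid transporter family, F730043M19Rik, Acp1, a small tyrosine phosphatase, and Matn2, a matrix protein. Their differences ran between 0.21 and 0.29 with adjusted p of 0.403 to 0.522, the 2 probes of Acp1 disagreed in sign, and Matn2 was at −0.01 with slide as a block.

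**Figure D3:**
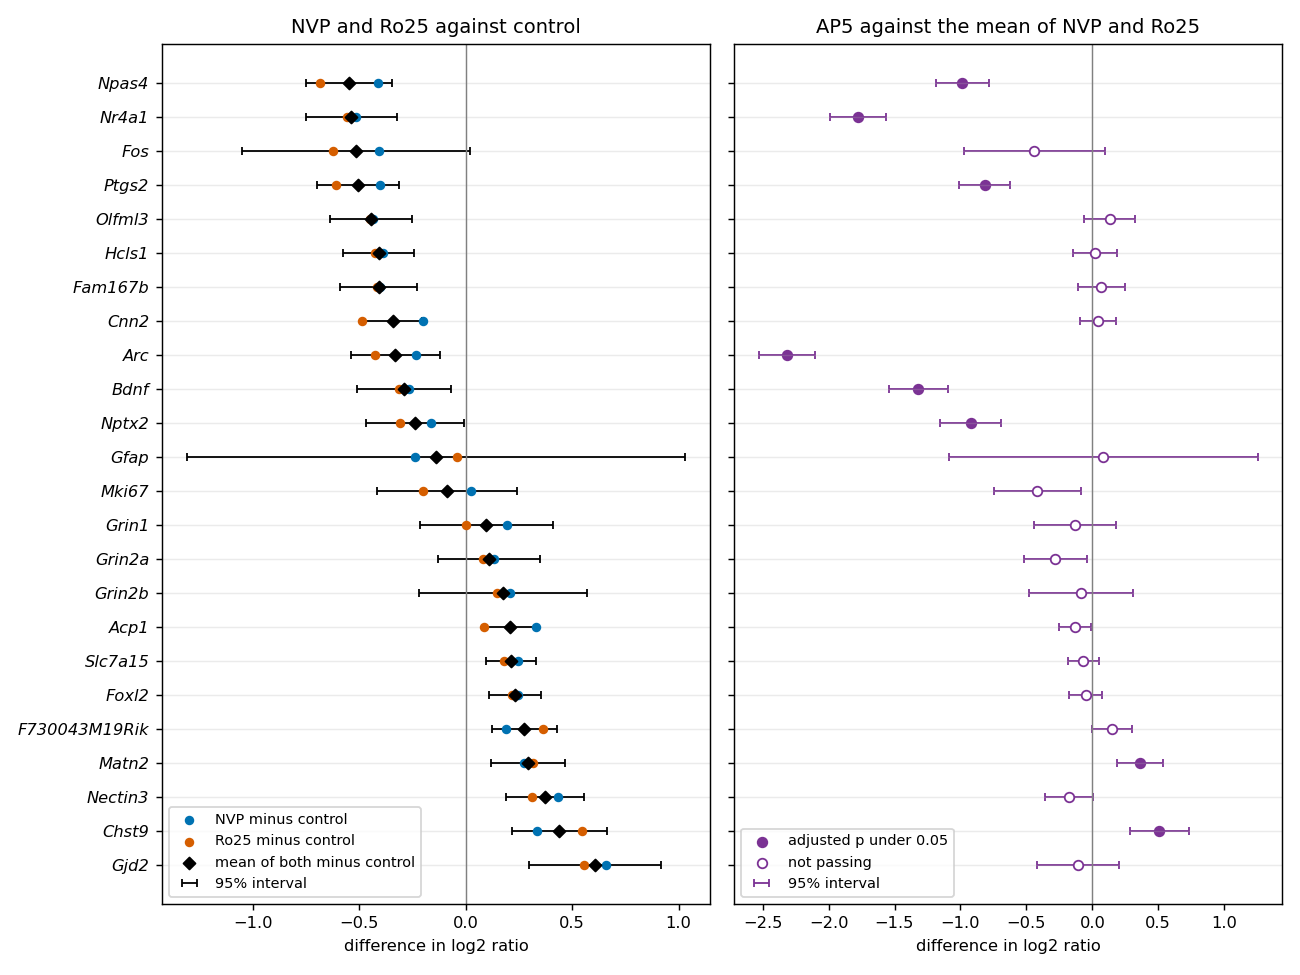
Differences in log2 ratio for the genes with the lowest p in each direction and genes always reported, sorted by the pooled difference. On the left the mean of NVP and Ro25 minus control is a diamond with its 95% interval, with each compound minus control as dots; on the right AP5 minus the mean of NVP and Ro25 is filled where its adjusted p was under 0.05. Gfap has the widest interval, and Arc and Nr4a1 lie farthest left on the right-hand side.

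Receptor genes had small measured differences relative to their errors. Grin1, the subunit that every NMDA receptor needs, differed by 0.10 ± 0.15, Grin2a by 0.11 ± 0.11 and Grin2b by 0.18 ± 0.19 (SE, adjusted p = 1.00 each). With slide as a block they were at −0.45, −0.37 and −0.69. All 7 NMDA receptor subunits tested had positive differences, with a median of 0.08, and 0 had an unadjusted p under 0.05. GABA-A receptor subunits had a median of 0.15 over 12 tested members, 11 of them positive and 0 with an unadjusted p under 0.05, and that median was −0.01 with slide as a block. For AMPA, kainate and metabotropic glutamate receptors the median was 0.06 over 15 members, for postsynaptic scaffolds 0.05 over 12 and for potassium channels 0.06 over 16, with 0 at an unadjusted p under 0.05 in each. Those medians turned sign with slide as a block, to −0.17 for AMPA, kainate and metabotropic receptors, −0.18 for scaffolds and −0.31 for potassium channels, and that of NMDA receptor subunits to −0.37.

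Genes of proliferation and of glia were examined because the study's title concerns astrocyte proliferation. Cell cycle genes had 24 tested members, 23 with negative differences, 2 lower at an unadjusted p under 0.05 (Tk1 at −0.13 and Rrm2 at −0.26, both of nucleotide supply), against 3.54% of all genes, and a median of −0.11, which was −0.01 with slide as a block. Mki67, the proliferation marker, averaged −3.54 ± 0.24 with NVP, −3.76 ± 0.37 with Ro25 and −3.56 ± 0.31 in control (SD, n = 5 each). Its difference of −0.09 ± 0.16 (SE, adjusted p = 1.00) was smaller than the spread within any group, but it was −0.68 with slide as a block and −0.76 for Ro25 against control on slide 4. Gfap, an intermediate filament of astrocytes, ran between 3.56 and 6.30 with NVP, 3.50 and 6.45 with Ro25 and 3.98 and 5.89 in control, so that its difference of −0.14 ± 0.56 (SE) says little. Reactive astrocyte genes had a median of −0.12 over 11 members, 0.28 with slide as a block, and 0 had an unadjusted p under 0.05.

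Among other lists, cholesterol synthesis genes had 21 of 22 members with negative differences, a median of −0.09, −0.33 with slide as a block, and 0 at an unadjusted p under 0.05. Inflammatory genes had 11 of 11 negative, a median of −0.10 and 3 lower at that threshold, against 3.54% of all genes, namely the chemokines Ccl2 at −0.20, Ccl3 at −0.17 and Cxcl1 at −0.29. Clock genes had 1 lower member, Per1 at −0.24, and housekeeping genes 1, the transferrin receptor Tfrc at −0.19, against the same 3.54%. Interferon-stimulated genes, FOXO targets, the unfolded protein response, glycolysis, oxidative phosphorylation and heat shock genes had 0 members at that threshold and medians between −0.07 and 0.01.

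Markers of the cell types in the dish were set beside these values. All 10 pan-neuronal and all 10 astrocyte markers were well above background on all 20 arrays, with medians of 0.02 and −0.02, and the astrocyte list averaged 3.36 to 4.23 on NVP arrays, 3.30 to 4.23 on Ro25 arrays and 3.40 to 4.02 on control arrays. Excitatory and inhibitory neuron markers had medians of 0.07 each. Of 10 microglia markers 7 were tested, without Itgam, P2ry12 and C1qa. All 7 had negative differences, with a median of −0.08. At an unadjusted p under 0.05, 1 was lower, Tmem119 (−0.21), against 3.54% of all genes. The list averaged −2.14 to −1.95 with NVP, −2.09 to −1.79 with Ro25 and −2.02 to −1.83 in control. Fibroblast markers had 5 of 6 negative, a median of −0.15 and 2 lower at that threshold, again against 3.54% of all genes, the collagens Col1a1 at −0.21 and Col1a2 at −0.16, with list means of −3.36 to −3.01 with NVP, −3.20 to −3.06 with Ro25 and −3.26 to −2.88 in control. Oligodendrocyte markers had a median of −0.03 over 8 members, endothelial markers −0.03 over 4 without Pecam1 and Cdh5, and ependymal markers 0.14 over 3. Over the processing settings given at the end, medians ran from −0.10 to 0.09 (pan-neuronal), −0.15 to 0.10 (excitatory) and −0.20 to 0.08 (inhibitory). They ran from −0.04 to 0.16 (astrocytes), −0.05 to 0.002 (oligodendrocytes) and −0.18 to 0.02 (endothelial). Those of microglia (−0.25 to −0.08), fibroblasts (−0.16 to −0.05) and ependymal cells (0.03 to 0.14) kept their sign. The part of these cell types in the genes above was not tested, and in bulk RNA fewer cells of a type and less RNA per cell cannot be told apart.

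**Figure D4:**
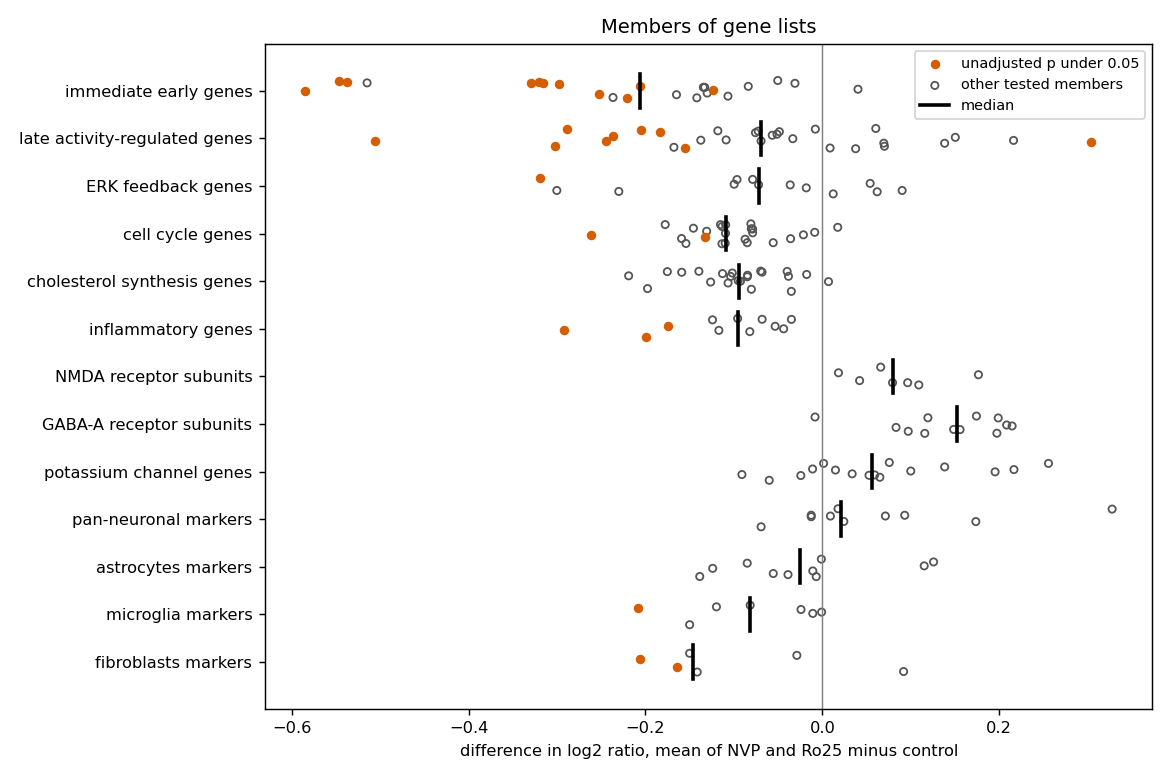
Pooled difference in log2 ratio (mean of NVP and Ro25 minus control) for each tested member of 13 gene lists, filled where the unadjusted p was under 0.05, with the list median as a bar. Immediate early genes lie furthest to the left with a median of −0.21 and 11 filled points, while both receptor lists have medians above 0 and no filled point.

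Against control separately, NVP gave 0 calls of 19338 genes (0%), with 1136 at an unadjusted p under 0.05 (5.87%). Ro25 gave 3 calls, all lower (0.0155%), among them Npas4 and Cnn2 at an adjusted p of 0.0473 each, with 839 genes at an unadjusted p under 0.05 (4.34%). These comparisons share the 5 control arrays, so they are not independent of each other or of the pooled one. Whether the compounds differ was tested directly, at doses that were not the same. NVP minus Ro25 gave 0 calls (0%), a lowest adjusted p of 0.742 and 1143 genes at an unadjusted p under 0.05 (5.91%). For Npas4 the difference between the compounds was 0.27 (95% interval 0.04 to 0.50, adjusted p = 0.811) and for Cnn2 0.28 (0.12 to 0.44, adjusted p = 0.742). For Ptgs2 it was 0.21 (−0.02 to 0.43) and for Arc 0.19 (−0.05 to 0.44), intervals that include 0 and reach 0.44. For Nr4a1 it was 0.04 (−0.21 to 0.29) and for Hcls1 0.04 (−0.16 to 0.23).

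AP5 was set against the mean of NVP and Ro25, a comparison that uses no control array. Here 1283 genes (6.63%) passed an adjusted p of 0.05, 741 lower with AP5 (3.83%) and 542 higher (2.8%), with a median size of 0.34 among them. At an unadjusted p under 0.05 there were 3402 genes (17.6%). Arc averaged 0.35 ± 0.35 with AP5, 2.77 ± 0.09 with NVP, 2.57 ± 0.13 with Ro25 and 3.00 ± 0.06 in control (SD, n = 5 each). It fell with AP5 by 2.32 ± 0.10 on the log2 scale relative to NVP and Ro25, or 4.98-fold (SE, adjusted p = 2.21e-11). Nr4a1 averaged −2.71 ± 0.20 with AP5, −0.92 ± 0.12 with NVP and −0.96 ± 0.16 with Ro25 (SD, n = 5 each), and fell by 1.78 ± 0.10, or 3.42-fold (SE, adjusted p = 8.5e-10). In both genes every AP5 array lay far below every NVP and Ro25 array, while those lay much nearer to control.

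On the 5 AP5 arrays Npas4 was never well above background. It averaged −0.03 ± 0.14 there, 1.10 ± 0.23 with NVP and 0.82 ± 0.21 with Ro25 (SD, n = 5 each), and was at least 1.97-fold lower with AP5, as measured in the sample channel, where no swap of dyes balances dye bias (adjusted p = 1.44e-06). Ptgs2 averaged −2.41 ± 0.14 with AP5, −1.49 ± 0.17 with NVP and −1.70 ± 0.11 with Ro25 (SD, n = 5 each), and fell by 0.82 ± 0.09, or 1.76-fold (SE, adjusted p = 9.01e-06). Bdnf fell with AP5 by 1.32 ± 0.11 (SE, adjusted p = 1.25e-07), Nptx2 by 0.92 ± 0.11 (SE, adjusted p = 1.73e-05), Dusp6 by 0.84 ± 0.07 (SE, adjusted p = 3.64e-07) and Rgs2 by 0.83 ± 0.08 (SE, adjusted p = 1.64e-06). Camk1g, higher than control with NVP and Ro25 without passing the test, fell with AP5 by 0.47 ± 0.10 relative to them (SE, adjusted p = 0.00478), a call that was lost with slide as a block (adjusted p = 0.0926) and on the first scan day (adjusted p = 0.144).

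Several genes near the head of the pooled ranking did not separate AP5 from the other compounds. Cnn2 differed by 0.05 ± 0.07 between AP5 and the mean of NVP and Ro25 (SE, adjusted p = 0.827), Hcls1 by 0.02 ± 0.08 (SE, adjusted p = 0.943), Fosb by −0.02 ± 0.14 (SE, adjusted p = 0.979) and Gjd2 by −0.11 ± 0.15 (SE, adjusted p = 0.825). The 95% interval was −0.09 to 0.18 for Cnn2, −0.14 to 0.19 for Hcls1 and −0.31 to 0.28 for Fosb. Chst9 and Matn2 rose with AP5 by 0.51 ± 0.11 and 0.36 ± 0.08 (SE, adjusted p = 0.00506 and 0.0111). Neither passed with slide as a block, at 0.39 for Chst9 and 0.22 for Matn2 (adjusted p = 0.262 and 0.361), and Matn2 did not pass on the first scan day (adjusted p = 0.0924).

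By list, 11 of 23 immediate early genes were lower with AP5 than with NVP and Ro25 and 0 higher, against 3.83% and 2.8% of all genes, with a list median of −0.35 against −0.003 for all genes. For late activity-regulated genes 11 of 29 were lower and 1 higher (median −0.39), and for ERK feedback genes 7 of 13 were lower and 2 higher (median −0.34). With slide as a block 8 immediate early, 7 late and 4 ERK feedback genes were lower and 0 higher. With arrays centred on their median 6, 7 and 3 were lower and 0 higher. For cell cycle genes 13 of 24 were lower and 0 higher, with a median of −0.31. That count was 4 without AP5 3, 8 without AP5 4 and 7 without AP5 5. It was 2 on the first scan day, and 0 with slide as a block or with arrays centred on their median. The list median was −0.27 without AP5 3, −0.28 on the first scan day, −0.30 with slide as a block and −0.17 with median centring. Calls over all genes fell too, from 1283 to 855 without AP5 3 and 587 on the first scan day. They numbered 329 with slide as a block and 177 with median centring. For FOXO, pro-apoptotic and thioredoxin genes 6 of 17 were higher, against 2.8% of all genes, and 0 lower, with 3 higher without AP5 5, 3 on the first scan day, 2 with slide as a block and 0 with median centring. For NMDA and GABA-A receptor subunits 0 of 7 and 0 of 12 passed, and with slide as a block 1 of each was lower. In the fit with slide as a block the AP5 difference rests on AP5 1 and AP5 5, as set out below.

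AP5 1 stood apart from the other AP5 arrays in several lists. Its mean log2 ratio was 4.46 over pan-neuronal markers, against 5.10 to 5.20 on AP5 2 to 5. It was 2.89 over astrocyte markers, against 3.82 to 4.33, and 3.39 over GABA-A receptor subunits, against 4.45 to 4.59. AP5 1 was also the lowest AP5 array over late activity-regulated genes, at 0.93, and over ERK feedback genes, at 0.38. Without it the median of late activity-regulated genes was −0.16, again with 11 lower and 1 higher, and 6 ERK feedback genes were lower and 2 higher (median −0.29). Immediate early genes had 11 lower and 0 higher (median −0.35) and cell cycle genes 10 lower and 0 higher (median −0.30) without AP5 1.

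The comparison with AP5 crosses slides too. Slide 2 held AP5 5 with NVP 2, 3 and 4, and slide 6 held AP5 1 with Ro25 2. AP5 2 and AP5 4 lay on slide 1 and AP5 3 on slide 7, with no array of another group. The AP5 difference with slide as a block therefore rests on AP5 1 and AP5 5, and AP5 1 stood apart in several lists. AP5 minus NVP on slide 2 was −2.42 for Arc and −1.49 for Nr4a1, and AP5 minus Ro25 on slide 6 was −2.43 for Arc and −1.91 for Nr4a1. With slide as a block, Arc, Nr4a1, Bdnf, Nptx2, Dusp6 and Rgs2 passed, at −2.41, −1.67, −1.13, −1.02, −0.79 and −0.84. Of 15 genes taken by the naming rule that differed between AP5 and the mean of NVP and Ro25, 8 did not pass in that fit. Among these 8 were Ptgs2, at −0.68 (adjusted p = 0.0590), and Camk1g, Chst9 and Matn2, given above. With arrays centred on their median in place of loess, 8 of the 15 did not pass, among them Dusp6, at −0.67 (adjusted p = 0.170), and Rgs2, at −0.71 (adjusted p = 0.0700). The number of calls was 329 with slide as a block, 587 on the first scan day alone, 177 with median centring and 855 without AP5 3.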

How the data were processed

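The authors deposited scanner files of 2-colour Agilent arrays (45018 spots), whose spot brightness is a linear intensity. The extraction software was Agilent Feature Extraction, version 10.7.3.1 by the headers and 11.0 by the submitters' processing notes. The deposited log10 ratio of each spot (red over green) served to settle the scale and direction of the authors' series table of log2 ratios (20674 probes), which it followed with correlations of 0.987 to 0.991. The sources used here do not give its normalization, and it served as an alternative.

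Background was corrected with normexp (offset 50) and each array normalized by loess. Flagged spots (0.282%) and control spots were left out. Probes whose red signal was well above background on 5 or more arrays (28498) were kept, and the brightest probe stood for its gene. RefSeq symbols (GRCm38.p6) named 33009 of 41174 probes, and 8165 kept the files' names. One limma fit (3.58.1, R 4.3.3, data.table at 1.17.8) over 20 arrays with a mean per group gave two-sided p-values, adjusted by Benjamini-Hochberg and called at 0.05. It was tested on simulated data.

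The members, the 30 gene lists (415 genes, 392 tested) and the tests were chosen with earlier results of these data known. Genes named are the 8 with the lowest p in each direction, 12 always reported, and up to 4 per list at an unadjusted p under 0.05. Some genes that the rule takes are not reported here.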

Additional observations from a re-analysis of the deposited data

Results flagged for a closer look

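Within groups of 5 arrays, 75 groups of values (25 genes in NVP, Ro25 and control) were searched for 1 array far from the other 4 by Dixon's criterion, which chance meets in about 1 of 20 groups, and 2 met it. Chst9 had a log2 ratio of 0.752 on Ro25 3, where the other Ro25 arrays lay between 0.998 and 1.09. Slc7a15 had 0.222 on NVP 3, where the other NVP arrays lay between 0.106 and 0.139.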

How the results depend on the processing

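The count of 0 genes for NVP and Ro25 together held with 15 arrays in place of 20, with both compounds as one group, with slide as a fixed or random block, on the first scan day, with the scanner's processed signals, median centring, the authors' value table, other filters and the mean of probes. With the replicate number as a block it was 2 for the pooled calls and 2 for genes moved by both compounds (Npas4 at −0.55 and Ptgs2 at −0.506, adjusted p = 0.0316 each). Of 15 same-numbered pairs of arrays, 6 had correlated deviations above 0.1 (range −0.447 to 0.707), and 3 of 15 arrays correlated best with their own number, so the numbers were not taken to pair samples. Leaving out 1 array gave 0 to 2 for both counts, 672 to 1242 genes at an unadjusted p under 0.05, −0.57 to −0.42 for Ptgs2, −0.35 to −0.31 for Arc and 855 to 1281 calls for AP5 against the mean of NVP and Ro25, with 855 without AP5 3. Leaving out AP5 arrays was an alternative chosen after seeing the data. Median centring gave 324 genes at an unadjusted p under 0.05 and 177 calls for AP5, which numbered 329 in the slide-blocked fit and 587 among arrays of the first scan day. With slide as a block the sign turned for Fos (0.0528), Gfap (1.20), Grin1 (−0.45), Grin2a (−0.37), Grin2b (−0.69) and Matn2 (−0.0147). Gfap was at 0.08 on the first scan day and at −0.461 to 0.078 with 1 array left out, and Mki67 was at −0.206 to 0.00494. The cause was not tested. With slide as a block 13 of 30 list medians moved beyond the spread between replicates; that of immediate early genes stayed between −0.36 and −0.18 over these settings and between −0.26 and −0.15 with 1 array left out. Dim probes limit Npas4 with AP5.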

Other observations

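Relb, an NF-κB subunit, and Tnfaip3, an inhibitor of NF-κB signalling, were the 2 of 11 tested inflammatory genes that were lower with AP5 than with NVP and Ro25, and both are described because their count is small, after their values were seen. Relb averaged −1.73 ± 0.22 with AP5, −0.34 ± 0.07 with NVP, −0.54 ± 0.08 with Ro25 and −0.35 ± 0.13 in control (SD, n = 5 each). It fell with AP5 by 1.28 ± 0.08 relative to NVP and Ro25 (SE, adjusted p = 1.19e-09). Its difference for NVP and Ro25 against control was −0.10 ± 0.08 (SE, adjusted p = 1.00). Tnfaip3 averaged −2.99 ± 0.18 with AP5, −1.90 ± 0.06 with NVP, −1.92 ± 0.06 with Ro25 and −1.79 ± 0.09 in control (SD, n = 5 each). It fell with AP5 by 1.08 ± 0.06 (SE, adjusted p = 1.10e-09), with −0.12 ± 0.06 for NVP and Ro25 against control (SE, adjusted p = 1.00).

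The arrays numbered 5 deviated from their group means together, with correlations across genes of 0.61 to 0.71 between NVP 5, Ro25 5 and control 5. Same-numbered pairs of arrays 1 to 4 had correlations between −0.45 and 0.51. Genes are not independent replicates in such a correlation, and the labels do not say what a number stands for.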
